A study of Homo sapiens with 18 samples.

Results

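The 5 receptor tyrosine kinases ERBB2, ERBB3, EGFR, INSR and IGF1R and the insulin receptor substrates IRS1 and IRS2 were followed in MDA-MB-231 cells, a triple negative breast cancer line. They were picked by name as genes of the kind known to increase when AKT is blocked, and with earlier results of these data known. Each symbol matched 1 row of the deposited count matrix, 7 of 57448 rows. The 18 RNA-seq libraries form 6 groups with 3 replicates each. WT is the parental line and MB231-myrAKT (myrAKT) carries a retroviral, membrane-anchored AKT1 that is constitutively active. MB231-GPS2KO1 and MB231-GPS2KO2 (KO1, KO2) are separate pools of cells that received lentiviral Cas9 with different sgRNA sets against GPS2 and were selected with puromycin, and neither pool was cloned. KO1+MK and KO2+MK are the same pools given 10 µM MK2206, an allosteric AKT inhibitor, for 4 h before harvest. No vehicle is named for the untreated cells, WT and myrAKT cells did not receive MK2206, and 1 dose and 1 time were sampled. Nothing in the sources says that replicates were separate cultures, so p-values measure only the spread between these samples, which may be technical.

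ERBB family receptors bind EGF-like ligands and act as dimers: ERBB2 has no known ligand of its own, and ERBB3 has little kinase activity but binds the regulatory subunit of PI3K strongly once phosphorylated. INSR and IGF1R bind insulin and the insulin-like growth factors and phosphorylate IRS1 and IRS2, docking proteins that carry the signal to PI3K and AKT. AKT keeps FOXO transcription factors out of the nucleus, and release of FOXO after AKT inhibition is a known route by which receptor genes such as ERBB3, INSR and IGF1R, and the substrate gene IRS2, can be induced.

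Values are CPM, a gene's counts relative to the library total, scaled between libraries by edgeR's trimmed mean of M-values (TMM). GPS2, the gene targeted in the pools, had 4.40, 4.89 and 4.42 CPM in WT, 4.53, 4.46 and 4.51 in KO1, and 5.90, 6.09 and 6.14 in KO2. It had 6.02, 6.13 and 4.51 CPM in myrAKT, 5.12, 4.78 and 5.84 in KO1+MK, and 6.16, 5.91 and 5.59 in KO2+MK. GPS2 RNA was thus not lower in the libraries labelled KO1 or KO2 than in WT, so these names stand below for the labels, and each direction between a pool and WT rests on them. Cas9 edits within exons can remove a protein while its RNA persists, so RNA counted over the whole gene does not settle whether GPS2 was edited, and for that the labels rest on the study's own checks of the pools, by western blot and PCR of genomic DNA, which were not analysed here. AKT1 RNA did separate by label, with 242, 232 and 218 CPM in myrAKT against 135, 134 and 136 in WT. All 6 markers of this line (VIM, CD44, CAV1, AXL, ANXA1, MSN) were abundant, summing to between 4252 and 5461 CPM per library, with MSN and VIM the highest in WT. The 7 genes expected low or absent summed to between 11.5 and 25.0 CPM, led by EPCAM (up to 12.3) in WT, KO1 and KO2 and by FOXA1 (up to 9.49) in the other 3 groups, and KRT5 had no count. Fibroblast markers summed to between 11.1 and 17.5 CPM, nearly all from COL1A1, with the other 5 genes at 0.235 or less in each library, and the 5 blood markers summed to at most 1.03. Treated libraries were shallower, 23419198 to 29939536 counted reads against 30287210 to 39319910 in untreated ones, so depth moved with treatment.

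With MK2206, IRS2, ERBB3 and INSR RNA rose and IRS1 RNA fell in both pools. A gene was called when its adjusted p, from edgeR's quasi-likelihood test with Benjamini-Hochberg adjustment over 15587 genes, was at most 0.001. In KO1, 3 of the 7 genes were called higher and 1 lower, against 11.8% and 9.69% of all genes tested. In KO2 the counts were also 3 higher and 1 lower, against 13.7% and 9.71%. Averaged over both pools, 4 were called higher (ERBB3, INSR, IGF1R, IRS2) and 2 lower (EGFR, IRS1), against 20.3% and 17.5%. Which direction held more of all genes called depended on the scaling. With TMM it was up, 1846 genes higher and 1511 lower in KO1, 2141 and 1514 in KO2, and 3158 and 2730 over both pools, and with upper-quartile scaling it was down, 1594 and 1852, 1775 and 2003, and 2736 and 3486. It was also down in KO1 (2024 and 2263) and over both pools (2958 and 3188) without a filter beyond 1 count, and over both pools with all 18 libraries in 1 fit (2856 and 3019). The genes were therefore not uniformly higher after MK2206, although they were picked as a group known to rise, and ERBB2 passed the test in none of these comparisons.

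**Figure D1:**
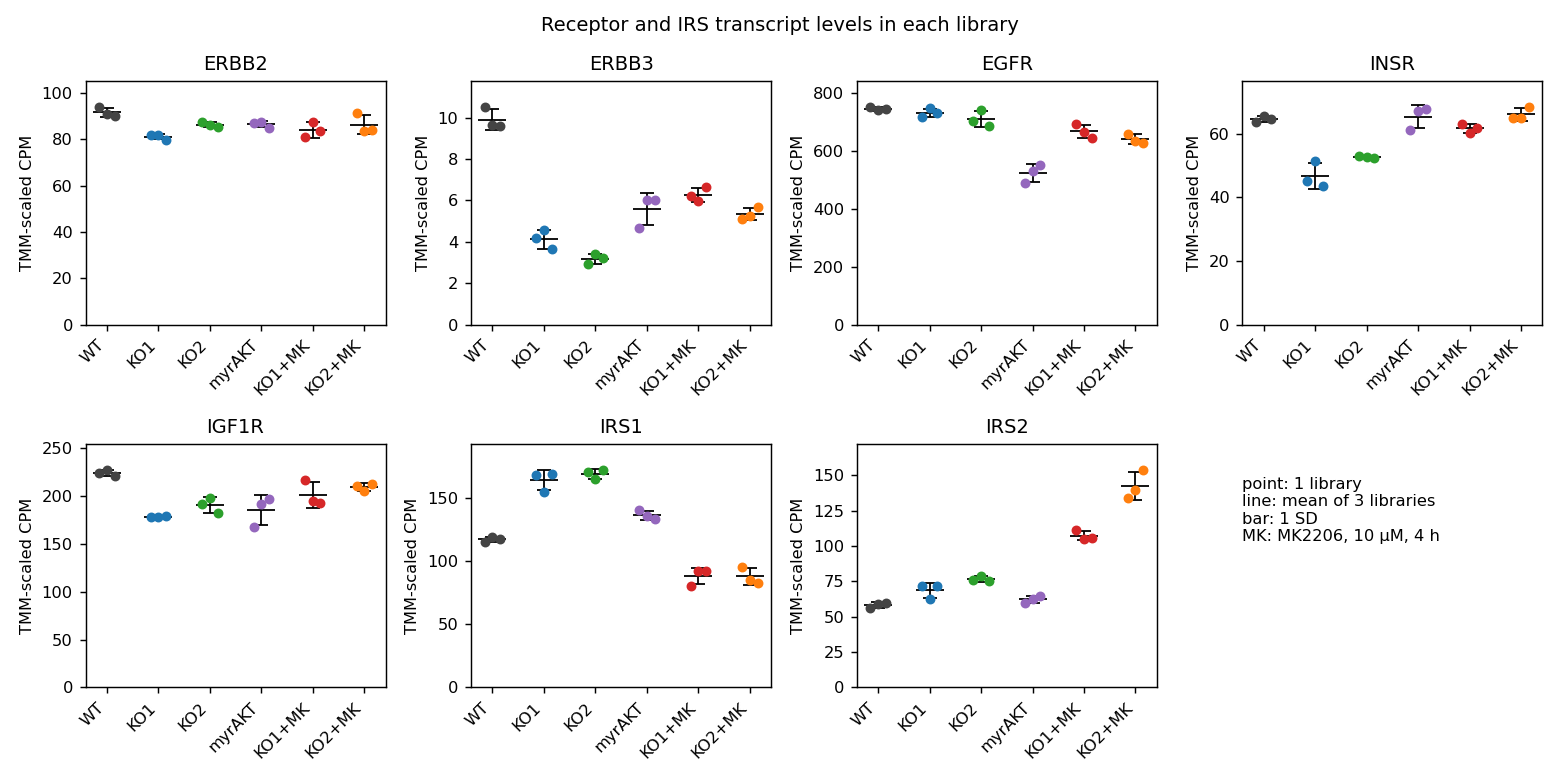
TMM-scaled CPM (y axis, from 0) of each gene in the 18 libraries, grouped by condition on the x axis, with points for libraries, horizontal lines for means and bars for 1 SD. IRS2 sits between 105 and 154 in treated libraries and at 79.0 or less in all others, while IRS1 sits at 95.9 or less in treated libraries and at 115 or more elsewhere.

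Per kilobase of annotated exon, the WT levels ran from EGFR (46.7 ± 0.370 CPM per kb, SD, n = 3) through IGF1R (16.1 ± 0.217), IRS1 (11.7 ± 0.209), ERBB2 (8.88 ± 0.199), IRS2 (7.13 ± 0.238) and INSR (5.96 ± 0.0813) to ERBB3 (0.845 ± 0.0427). ERBB3 therefore rested on the fewest reads, 102 to 357 counts per library, and EGFR on 16231 to 28770.

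ERBB3 (ENSG00000065361, chr12:56076799-56103505, hg38) had 10.5, 9.64 and 9.58 CPM in WT, 4.17, 4.57 and 3.63 in KO1, and 2.92, 3.40 and 3.24 in KO2. It had 6.20, 5.97 and 6.63 CPM in KO1+MK, 5.08, 5.26 and 5.66 in KO2+MK, and 4.67, 6.03 and 6.04 in myrAKT. WT was highest without overlap, the untreated pools were lowest, and the treated pools lay between them, with myrAKT overlapping both treated groups. The log2 change with MK2206 was 0.63 ± 0.113 (SE) in KO1 (adjusted p = 0.000247, edgeR) and 0.76 ± 0.117 in KO2 (adjusted p = 3.61e-05, edgeR), with every treated library above every untreated one of its pool. The KO1 call was lost without KO1 replicate 1 (0.64, adjusted p = 0.00248), KO1 replicate 3 (0.55, 0.00289) or KO1+MK replicate 3 (0.58, 0.00207), and when counts were thinned to the smallest library (0.53, 0.00136), an alternative chosen after seeing the data; over all 17 alternatives edgeR or DESeq2 adjusted p ran from 4.56e-06 to 0.00289. Treated cells did not reach the WT range of 9.58 to 10.5 CPM, a difference that was not tested.

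EGFR (ENSG00000146648, chr7:55019017-55211628), the most abundant of these receptors, had 751, 739.7 and 743 CPM in WT, 718, 747 and 730.3 in KO1, and 703, 742 and 686 in KO2. It had 692, 665 and 646 CPM in KO1+MK, 659, 635 and 627 in KO2+MK, and 489, 531 and 552 in myrAKT. The myrAKT libraries stood below all others, and the treated libraries lay below the untreated ones within each pool by a small margin. MK2206 changed EGFR by a log2 of -0.11 ± 0.0377 in KO1 (adjusted p = 0.0275, edgeR) and -0.13 ± 0.0391 in KO2 (adjusted p = 0.0103, edgeR), neither of them called. The mean over both pools, -0.12 ± 0.0276, was called (adjusted p = 0.000699, edgeR) but did not hold with library totals only (-0.10, 0.00305) or without a term for the pool (-0.12, 0.00776). It was also lost, with values from -0.13 to -0.10 and adjusted p from 0.0014 to 0.00347 (edgeR), without KO1 replicate 1, 2 or 3, KO2 replicate 1 or 2, KO1+MK replicate 2 or 3, or KO2+MK replicate 2 or 3, and over its 24 alternatives adjusted p ran from 1.01e-05 to 0.00776.

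ERBB2 (ENSG00000141736, chr17:39687914-39730426) had 93.9, 91.1 and 89.9 CPM in WT, 81.8, 82.0 and 79.9 in KO1, and 87.7, 86.1 and 85.3 in KO2. It had 80.8, 87.5 and 83.6 CPM in KO1+MK, 91.2, 83.7 and 84.1 in KO2+MK, and 87.2, 87.4 and 85.0 in myrAKT. Treated and untreated libraries overlapped in both pools. The log2 change with MK2206 over both pools was 0.05, with a 95% confidence interval from -0.01 to 0.10. Its exons share 571 bases with MIEN1 and 144 with PGAP3 on the opposite strand, and reads there cannot be told apart if strand was not used in counting, which the sources do not say. The same holds for 186 bases of EGFR shared with EGFR-AS1.

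INSR (ENSG00000171105, chr19:7112255-7294414) had 63.7, 65.4 and 64.7 CPM in WT, 45.2, 51.4 and 43.4 in KO1, and 52.9, 52.8 and 52.2 in KO2. It had 63.0, 60.2 and 61.8 CPM in KO1+MK, 65.0, 64.8 and 68.3 in KO2+MK, and 61.2, 67.1 and 67.6 in myrAKT. The untreated pools stood below all other libraries, and KO2+MK and myrAKT overlapped WT. INSR rose with MK2206 by a log2 of 0.43 ± 0.0562 in KO1 (adjusted p = 2.18e-05, edgeR) and 0.35 ± 0.0419 in KO2 (adjusted p = 2.52e-06, edgeR), with all 3 treated libraries above all 3 untreated ones in each pool.

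IGF1R (ENSG00000140443, chr15:98648539-98964530), the close relative of INSR, had 225, 228 and 222 CPM in WT, 178, 178 and 179.7 in KO1, and 192, 198 and 182 in KO2. It had 217, 195 and 193 CPM in KO1+MK, 211, 205 and 213 in KO2+MK, and 168, 192 and 197 in myrAKT. WT was highest, and treated libraries lay above the untreated ones of their pool without overlap. The log2 change with MK2206 was 0.20 ± 0.0467 in KO1 (adjusted p = 0.00314, edgeR) and 0.15 ± 0.0391 in KO2 (adjusted p = 0.00351, edgeR), neither called. The mean over both pools, 0.18 ± 0.0309 (adjusted p = 3.85e-05, edgeR), was called, but not with upper-quartile scaling (0.14, adjusted p = 0.0013), without a filter beyond 1 count (0.14, 0.00122) or without a term for the pool (0.18, 0.00284, the highest of 24 alternatives, the lowest being 2.41e-06). DESeq2 called the KO1 change (0.19, adjusted p = 0.000336), and so did edgeR without KO1+MK replicate 1 (0.12, adjusted p = 0.00059); over 17 alternatives adjusted p ran from 0.000336 to 0.0196. EGFR in KO1 was likewise called without that library (-0.15, adjusted p = 1.76e-05 by edgeR, over 17 alternatives up to 0.113).

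**Figure D2:**
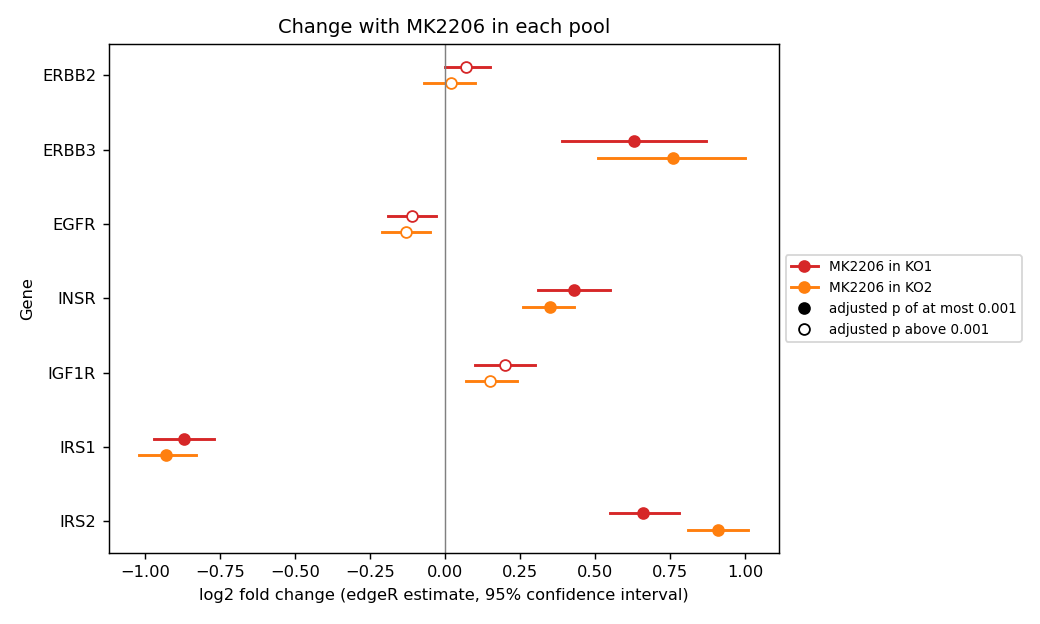
The edgeR log2 fold change with MK2206 (x axis) for each gene (y axis) in KO1 and KO2, with 95% confidence intervals as bars and filled points for an adjusted p of at most 0.001. IRS1 lies at -0.87 and -0.93 and IRS2 at 0.66 and 0.91, while the ERBB2 intervals include 0.

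IRS1 (ENSG00000169047, chr2:226731312-226799820), a substrate of both insulin family receptors, had 115, 119.5 and 117 CPM in WT, 169, 155 and 169 in KO1, and 171, 165 and 173 in KO2. It had 80.7, 92.3 and 92.1 CPM in KO1+MK, 95.9, 85.3 and 82.9 in KO2+MK, and 140.4, 136 and 134 in myrAKT. The treated libraries were the lowest of all 18 and the untreated pools the highest, with WT and myrAKT between them and no overlap between these levels. IRS1 fell with MK2206 by 0.87 ± 0.0473 on the log2 scale in KO1 (adjusted p = 3.89e-09, edgeR) and by 0.93 ± 0.0458 in KO2 (adjusted p = 1.17e-10, edgeR).

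IRS2 (ENSG00000185950, chr13:109752695-109786583) had 56.0, 59.0 and 59.6 CPM in WT, 72.1, 62.8 and 71.9 in KO1, and 76.1, 79.0 and 75.1 in KO2. It had 111, 105 and 106 CPM in KO1+MK, 134, 139 and 154 in KO2+MK, and 59.8, 62.3 and 64.7 in myrAKT. All 6 treated libraries were above every untreated library, and KO2+MK was above KO1+MK. IRS2 rose with MK2206 by a log2 of 0.66 ± 0.0528 in KO1 (adjusted p = 3.75e-07, edgeR) and 0.91 ± 0.0482 in KO2 (adjusted p = 3.76e-10, edgeR). The calls of IRS1 and IRS2 with MK2206 held in each of the 17 alternatives per pool.

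Since the substrates moved in opposite directions, their ratio was computed per library, a measure chosen after their values were seen. Per kilobase of exon, IRS2 over IRS1 was 0.596, 0.606 and 0.623 in WT, 0.524, 0.496 and 0.523 in KO1, 0.548, 0.588 and 0.535 in KO2, and 0.523, 0.564 and 0.596 in myrAKT. It was 1.69, 1.40 and 1.41 in KO1+MK and 1.72, 2.01 and 2.28 in KO2+MK. IRS1 was thus the more abundant substrate RNA per length in all 12 untreated libraries and IRS2 in all 6 treated ones. The sum of both per kilobase was 24.9 ± 1.44 CPM (SD, n = 3) in KO1 with 21.7 to 22.2 in KO1+MK, and 26.3 ± 0.115 in KO2 and 26.2 ± 0.777 in KO2+MK, so that in KO2 the sums lay within their spread.

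**Figure D3:**
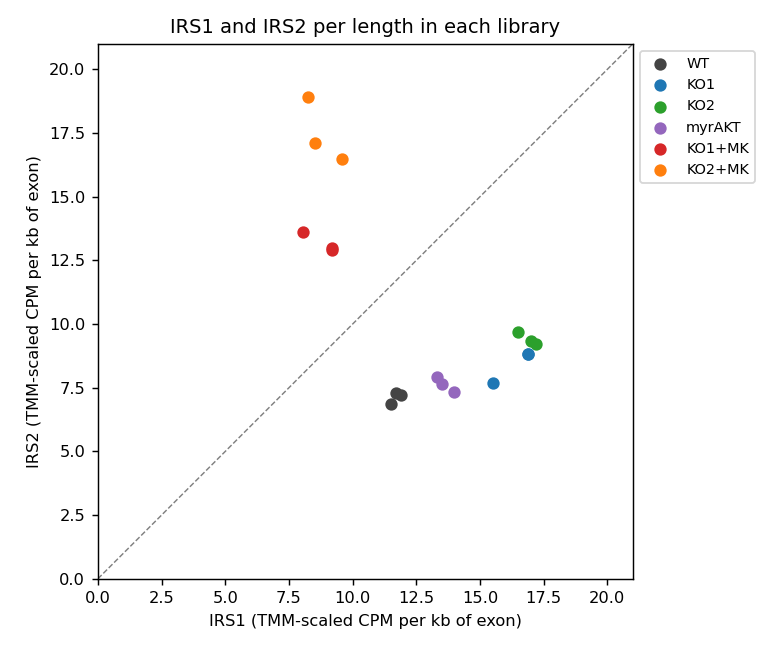
IRS1 (x axis) against IRS2 (y axis), both in TMM-scaled CPM per kb of exon, for each of the 18 libraries, colored by group, with a dashed line where both are equal. The 6 treated libraries lie above the line with ratios of 1.40 to 2.28, and the 12 untreated ones lie below it with ratios of 0.496 to 0.623.

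Because the substrates diverged, the 250 bases before their RefSeq starts are shown (GRCh38.p14, 5′ to 3′ on the gene's strand, minus for both). RefSeq promoter windows of 300 bases, 250 before to 50 after the start, were matched for 6 of the 7 genes by symbol (not ERBB3) and searched on both strands for the forkhead motif GTAAACA, bound by FOXO factors, and the insulin response motif CAAAACA. IRS2 held 1 match to CAAAACA, on the opposite strand, starting 40 bases before the start and shown in capitals, and the windows of the other 5 genes (both EGFR windows included) held neither motif.
IRS2 chr13:109786584-109786833: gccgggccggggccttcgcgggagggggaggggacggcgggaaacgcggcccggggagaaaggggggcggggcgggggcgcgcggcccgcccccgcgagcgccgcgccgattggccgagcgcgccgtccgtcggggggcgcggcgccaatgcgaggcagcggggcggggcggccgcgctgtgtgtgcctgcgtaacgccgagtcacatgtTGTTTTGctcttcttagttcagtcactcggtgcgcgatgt
IRS1 chr2:226799821-226800070: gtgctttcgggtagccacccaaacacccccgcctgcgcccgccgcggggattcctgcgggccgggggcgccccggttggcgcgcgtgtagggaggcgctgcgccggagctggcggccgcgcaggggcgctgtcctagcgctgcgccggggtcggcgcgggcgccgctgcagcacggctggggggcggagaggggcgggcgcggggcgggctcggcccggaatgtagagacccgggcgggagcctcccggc
Of 34943 promoter windows, 4.93% held CAAAACA and 3.42% held GTAAACA. A match describes these letters in this window, not a bound site.

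The change with MK2206 was also compared between the pools, as the KO2 change minus the KO1 change in 1 fit of 12 libraries. For none of the 7 genes was this difference called by edgeR, against 0.0128% of all genes (2 of 15587, DUSP1 and CCN2, named after their values were seen). At an unadjusted p below 0.05 there was 1, IRS2, with a log2 difference of 0.25 ± 0.0788 (95% confidence interval 0.08 to 0.41, adjusted p = 0.36 by edgeR), and DESeq2 called 0. The interval for ERBB3 ran from -0.20 to 0.45 and that for IRS1 from -0.21 to 0.10. Differences between the pools inside these intervals were therefore not excluded.

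The untreated lines were next set against WT, which asks what the GPS2-targeted pools and active AKT share at these genes. These comparisons use the same 3 WT libraries. In KO1, 2 of the 7 genes were called higher and 4 lower, against 21.1% and 21.8% of all genes. In KO2, 2 were called higher and 3 lower, against 21.8% and 22.9%, and in myrAKT 1 was called higher and 3 lower, against 13.8% and 18.2%. The myrAKT background, 2147 genes higher and 2834 lower, turned to 2451 and 2388 with upper-quartile scaling and 2540 and 2400 with library totals. The KO1 background, 3295 and 3394, turned to 3267 and 3215 with DESeq2, 3363 and 3345 with its size factors, 4082 and 3551 without a filter beyond 1 count, 3399 and 3112 in 1 fit of all libraries, and 3233 and 3077, 2879 and 2695, and 2819 and 2617 without WT replicate 2, WT replicate 3 and KO1 replicate 1, and that of KO2, 3394 and 3566, to 5176 and 5135 at an adjusted p of at most 0.05. ERBB3 fell most among them, with log2 changes of -1.28 ± 0.0983 in KO1, -1.64 ± 0.0959 in KO2 and -0.83 ± 0.107 in myrAKT (adjusted p = 2.07e-09, 2.32e-10 and 2.41e-06, edgeR), and WT was above all 9 other untreated libraries. IGF1R fell in all 3 lines, with log2 changes of -0.35 ± 0.0292, -0.24 ± 0.0377 and -0.28 ± 0.0555 in the same order (adjusted p = 6.89e-09, 2.8e-05 and 0.00048, edgeR). IRS1 rose in all 3, by 0.47 ± 0.036, 0.52 ± 0.0338 and 0.21 ± 0.0416 (adjusted p = 2.22e-09, 7.88e-10 and 0.000285, edgeR).

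INSR was called in the pools and EGFR in myrAKT, and the difference between the pools and myrAKT was not tested. INSR fell in KO1 (-0.49 ± 0.052, adjusted p = 3.19e-07, edgeR) and KO2 (-0.30 ± 0.0375, adjusted p = 1.98e-06, edgeR) and had a log2 change of 0.01 in myrAKT, with an interval from -0.09 to 0.11. EGFR fell in myrAKT (-0.51 ± 0.0505, adjusted p = 6.98e-08, edgeR) and had changes of -0.04 in KO1 and -0.07 in KO2, with intervals from -0.10 to 0.02 and from -0.15 to 0.01. IRS2 rose in KO1 (0.23 ± 0.0502, adjusted p = 0.000827, edgeR) and KO2 (0.39 ± 0.0414, adjusted p = 2.86e-07, edgeR), and in myrAKT its change of 0.09 was not called. ERBB2 was lower in KO1 (-0.19 ± 0.0348, adjusted p = 8.68e-05, edgeR) and not called in KO2 or myrAKT (-0.09 in both).

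Several of the smaller calls against WT were lost under some alternatives, among them fits that left out 1 library. IRS2 in KO1 was lost without WT replicate 1 (0.20, adjusted p = 0.0012 by edgeR), 2 (0.25, 0.00121) or 3 (0.26, 0.00174) and without KO1 replicate 1 (0.20, 0.00605) or 3 (0.19, 0.00855), and with upper-quartile (0.20, 0.00232) or library total scaling (0.19, 0.00234); adjusted p ran from 4.61e-08 to 0.00855 over 17 alternatives. ERBB2 in KO1 was lost without KO1 replicate 1 (-0.19, adjusted p = 0.00121 by edgeR, the highest of 17 alternatives, the lowest being 2.14e-05) or 3 (-0.18, 0.00105), or with no filter beyond 1 count (-0.16, 0.00108). In myrAKT, IGF1R was lost without WT replicate 2 (-0.27, adjusted p = 0.00244 by edgeR) or 3 (-0.29, 0.0021) and with upper-quartile (-0.24, 0.00908) or library total scaling (-0.24, 0.00554), the range being 4.73e-06 to 0.00908. IRS1 in myrAKT was lost without WT replicate 1 (0.19, adjusted p = 0.00192 by edgeR), 2 (0.22, 0.00109) or 3 (0.21, 0.00241), without myrAKT replicate 1 (0.18, 0.00139) or 2 (0.21, 0.00214), and with no filter beyond 1 count (0.17, 0.054), the range being 2.35e-05 to 0.054.

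**Figure D4:**
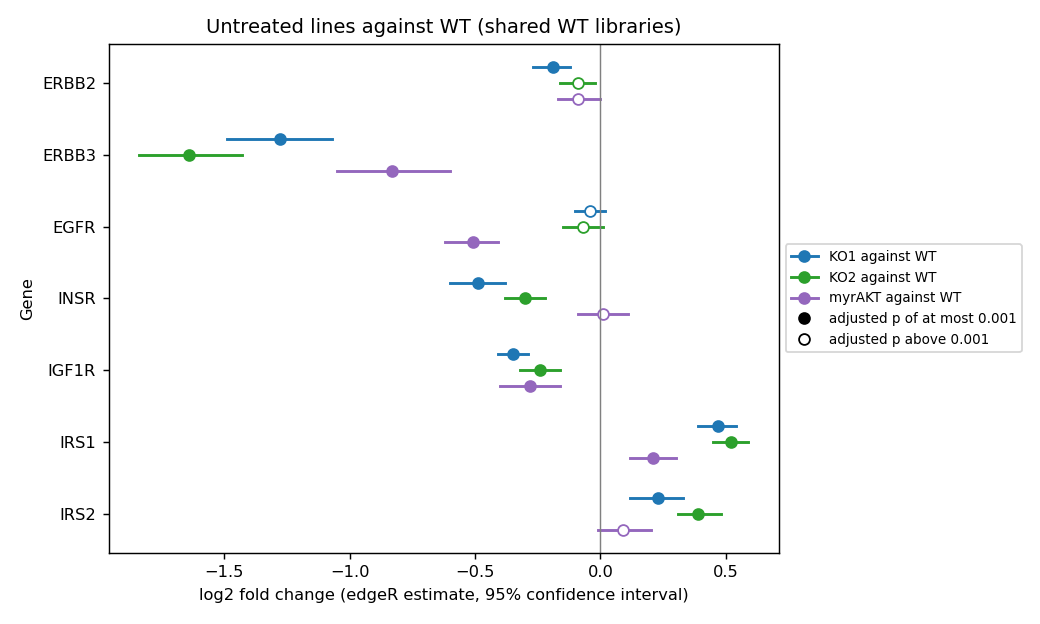
The edgeR log2 fold change against WT (x axis) for each gene (y axis) in KO1, KO2 and myrAKT, which share the WT libraries, with 95% confidence intervals as bars and filled points for an adjusted p of at most 0.001. ERBB3 lies at -1.28, -1.64 and -0.83, INSR is lower in the pools and at 0.01 in myrAKT, and EGFR is at -0.51 in myrAKT.

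Between the untreated pools, edgeR called none of the 7 genes, against 15.1% of all genes. DESeq2 called 0, and 5 had an unadjusted p below 0.05: ERBB3 was higher in KO1 (log2 0.36 ± 0.124, adjusted p = 0.0264, edgeR), and ERBB2, INSR, IGF1R and IRS2 were lower there, with log2 differences from -0.18 to -0.10. The INSR difference, -0.18 ± 0.0504 (adjusted p = 0.00719, edgeR), was called without KO1 replicate 2 (-0.26, adjusted p = 4.03e-05), the library with 51.4 CPM, and adjusted p reached 0.0519 over its 17 alternatives.

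The untreated pools enter the comparison with WT and that with MK2206 with opposite signs, so their values are given side by side for both pairs without a shared library. For KO1 against WT and MK2206 in KO2, the log2 changes were -1.28 and 0.76 for ERBB3, -0.49 and 0.35 for INSR, -0.35 and 0.15 for IGF1R, and 0.47 and -0.93 for IRS1. They were 0.23 and 0.91 for IRS2, -0.04 and -0.13 for EGFR, and -0.19 and 0.02 for ERBB2. For KO2 against WT and MK2206 in KO1, they were -1.64 and 0.63 for ERBB3, -0.30 and 0.43 for INSR, -0.24 and 0.20 for IGF1R, and 0.52 and -0.87 for IRS1. For IRS2 this pair gave 0.39 and 0.66, for EGFR -0.07 and -0.11, and for ERBB2 -0.09 and 0.07. ERBB2, ERBB3, INSR, IGF1R and IRS1 thus had opposite signs in both pairs and IRS2 and EGFR the same sign, though ERBB2 with MK2206 in KO2 changed sign under 3 alternatives. The values of EGFR, those of ERBB2 except in KO1 against WT, and those of IGF1R with MK2206 were not called. In treated cells IRS1 (80.7 to 95.9 CPM) lay below WT (115 to 119.5) and IRS2 (105 to 154) above it (56.0 to 59.6), differences that were not tested.

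For each gene, the 3 tested genes with the highest Pearson correlation of log2 CPM over the 18 libraries were listed as a description, the libraries being shared and falling into 6 groups. They were PWWP2A (r = 0.986), SIRT1 (0.986) and SKI (0.985) for IRS2, and for IRS1 the lncRNA ENSG00000261786 (0.972), SLC45A3 (0.971) and MOCS3 (0.969). DENND4A (0.976), MIA3 (0.964) and ST3GAL1 (0.957) were most like ERBB3, and ATRN (0.963), LMBR1L (0.962) and PCMTD1 (0.961) most like INSR. TGFB2-AS1 (0.976), PHC1 (0.971) and SAMD4A (0.970) were most like EGFR. Correlations were lower for IGF1R, with ZNF717 (0.911), RCOR2 (0.868) and RFX3 (0.862), and for ERBB2, with RAB37 (0.874), GLT8D1 (0.871) and CSPG5 (0.851).

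The gene lists below were chosen with earlier results of these data known, so their shares beside those of all genes are descriptions. Among 14 genes for ligands of these receptors, 8 passed the filter of 1 CPM in at least 3 libraries, and IGF1 and INS did not. Over both pools MK2206 raised 2 and lowered 3 of the 8, with a median log2 change of -0.11 against -0.00 for all genes, of which 20.3% rose and 17.5% fell. The EGFR ligand genes HBEGF (0.49 ± 0.0286, adjusted p = 1.61e-12, edgeR) and TGFA (0.23 ± 0.0295, adjusted p = 4.61e-07, edgeR) rose, and AREG (-0.61 ± 0.049), EREG (-0.45 ± 0.0356) and NRG1 (-0.55 ± 0.0307), the last for a ligand of ERBB3, fell. Without a term for the pool, AREG (-0.67, adjusted p = 0.123) and TGFA (0.23, 0.0556) were not called by edgeR, these being the highest adjusted p over 24 alternatives, the lowest being 2.6e-27 and 3.13e-09. IGF2, for a ligand of IGF1R, fell from 22.2 ± 1.81 CPM (SD, n = 3) in WT to 12.1 ± 0.974 in KO1, 6.58 ± 0.653 in KO2 and 0.669 ± 0.0582 in myrAKT, a log2 change of -5.05 ± 0.124 in the last (adjusted p = 2.01e-16, edgeR).

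Genes below that are named only because 5 or fewer of a list were called in 1 direction were picked after their values were seen. Against WT, the all-gene medians were -0.01 in KO1, 0.01 in KO2 and 0.02 in myrAKT, with 21.1%, 21.8% and 13.8% of all genes called higher and 21.8%, 22.9% and 18.2% lower. In KO1, 1 ligand gene rose (EREG, 0.26) and 4 fell (IGF2 -0.90, EGF -0.72, TGFA -0.57, HBEGF -0.42), with a median of -0.25. In KO2, 4 fell (IGF2 -1.76, AREG -1.02, TGFA -0.88, HBEGF -0.79) with a median of -0.49, and 0 were called higher by edgeR, with 0 at an unadjusted p below 0.05 and 0 by DESeq2. Over the alternatives, the ligand median ran from -0.29 to -0.07 in KO1 and from -0.58 to -0.10 in KO2. In myrAKT, EGF (0.97) and NRG2 (0.50) rose and IGF2, AREG (-1.34), HBEGF (-0.63) and TGFA (-0.31) fell, with a median of -0.19 that turned to 0.08 over the 13 genes tested without a filter beyond 1 count. The EGF call in KO1 was lost without KO1 replicate 2 (-0.65, adjusted p = 0.00102 by edgeR) and with thinned counts (-0.66, 0.00152), the lowest of 17 alternatives being 1.24e-05, and that of EREG without KO1 replicate 3 (0.22). Conversely, 2 ligand genes were called higher in KO1 without WT replicate 1 and with DESeq2 size factors. NRG2 was not called with values of 0.42 without WT replicate 1, 0.48 without WT replicate 3, 0.50, 0.52 and 0.44 without myrAKT replicates 1, 2 and 3, and 0.46 with thinned counts.

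Of 8 genes for IGF binding proteins, which hold IGFs outside the cell, and the IGF2 receptor, 7 were tested. MK2206 lowered 2 of them (median log2 change -0.06), against 17.5% of all genes, and edgeR called 0 higher, with 0 at an unadjusted p below 0.05 and 0 by DESeq2. IGFBP1, a known insulin-repressed FOXO target in liver, fell with MK2206 by 0.85 on the log2 scale and was higher in KO1 (0.70 ± 0.0721), KO2 (0.97 ± 0.0654) and myrAKT (1.01 ± 0.0722). IGFBP6 fell by 0.24 with MK2206 (adjusted p = 0.000303, edgeR), a call lost without KO1 replicate 3 (-0.22, adjusted p = 0.00135), KO2 replicate 2 (-0.23, 0.00104) or a term for the pool (-0.24, 0.0211), the lowest of 24 alternatives being 6.93e-05. Against WT, IGFBP3 rose beside IGFBP1 in KO1 (0.37), KO2 (0.78 ± 0.0564) and myrAKT (0.88 ± 0.0592), these 2 being all that rose. In KO1, 3 fell (IGFBP6 -0.54, IGFBP7 -0.44, IGF2R -0.21), in KO2 4 fell (IGFBP2 from 1.41 to 0.350 CPM, IGFBP6 -0.75, IGF2R -0.34, IGFBP7 -0.32), and in myrAKT 1 fell (IGFBP6, -0.57), with medians of -0.28, -0.34 and 0.07. IGFBP2 would not have passed the filter without the WT libraries, where it is higher, and without it 3 fell in KO2. It was also called there with no filter beyond 1 count. IGF2R was not called in KO2 without WT replicate 2 (-0.30) or 3 (-0.35) or with upper-quartile scaling (-0.36), nor in KO1 with all libraries in 1 fit (-0.19).

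Of 53 other receptor tyrosine kinase genes, 35 were tested, and MK2206 raised 10 and lowered 7, against 20.3% and 17.5% of all genes. Their median log2 change was -0.05, and 0.02 over the 52 tested without a filter beyond 1 count. The largest called changes over both pools were increases in EPHA7 (1.86 ± 0.113), EPHB3 (1.84 ± 0.0976), AATK (1.76 ± 0.208), FGFR3 (1.29 ± 0.109) and EPHA5 (0.77 ± 0.149). AATK would not have passed the filter without the treated libraries, where it is higher (0.560 CPM in KO1 and 0.631 in KO2, 1.49 in KO1+MK and 2.70 in KO2+MK), and without it 9 rose. EPHB3, an ephrin receptor gene, went from 4.24 ± 0.229 CPM (SD, n = 3) in KO1 to 13.0 ± 0.327 in KO1+MK and from 5.81 ± 0.571 in KO2 to 23.8 ± 5.16 in KO2+MK. With thinned counts EPHA5 was not called (0.76, adjusted p = 0.00105, edgeR, the highest of 24 alternatives, the lowest being 2.87e-05). Against WT, 11 fell in KO1, 14 in KO2 and 13 in myrAKT, with medians of -0.18, -0.17 and -0.09. LMTK3 fell in all 3 lines (-1.69 ± 0.187, -2.42 ± 0.211 and -2.15 ± 0.221), EPHA7 fell in KO1 (-1.05 ± 0.18), the collagen receptor gene DDR1 fell in KO1 (-0.76 ± 0.0475) and KO2 (-0.89 ± 0.0485, named after its value was seen), and the VEGF receptor gene FLT1 fell in KO2 (-1.72 ± 0.197) and myrAKT (-3.41 ± 0.294). FLT1 was scarce, with a mean of 2.81 CPM in WT, 0.849 in KO2 and 0.252 in myrAKT. In KO1, 2 rose (MERTK 0.28, EPHB2 0.17), in KO2 3 rose (MERTK 0.35, AXL 0.24, EPHA3, from 0.0364 to 0.519 CPM), and in myrAKT 6 rose, among them EPHA3 (2.43 CPM). LMTK3 would not have passed the filter without WT (3.11 CPM, against 0.974 in KO1, 0.581 in KO2 and 0.711 in myrAKT), nor EPHA3 without myrAKT. Without genes that passed through the higher group of a comparison, 10 fell in KO1, 13 in KO2 and 12 in myrAKT, and 5 rose in myrAKT. With no filter beyond 1 count, AATK, LMTK3 and EPHA3 were also called in these comparisons. MERTK in KO1 was not called without KO1 replicate 3 (0.24). EPHB2 was not called without WT replicate 1 (0.12) or KO1 replicate 1 (0.17), 2 (0.17) or 3 (0.18), with DESeq2 size factors (0.18), or with upper-quartile or library total scaling (0.14 in both).

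Adaptors and docking proteins act beside IRS1 and IRS2 between receptors and PI3K or RAS. Of 25 such genes, 19 were tested, and MK2206 raised 13 and lowered 2 (GAB2 -0.27, DOK1 -0.24) over both pools, against 20.3% and 17.5% of all genes, with a median log2 change of 0.33 against -0.00 for all genes. Increases included PIK3R1 (0.88 ± 0.0585), for a regulatory subunit of PI3K, SHC4 (0.85 ± 0.102), GAB1 (0.81 ± 0.0479) and the RAS exchange factor gene SOS2 (0.69 ± 0.0327). PIK3R1 had 21.9 ± 1.24 CPM (SD, n = 3) in WT, 29.0 ± 1.01 in KO1, 38.7 ± 0.325 in KO2 and 34.9 ± 0.952 in myrAKT, and 50.3 ± 3.48 and 73.3 ± 9.77 in KO1+MK and KO2+MK. GRB7 rose by 1.53 ± 0.3 (adjusted p = 0.000266, edgeR), but this call was lost without KO2 replicate 1 or 2 or KO1+MK replicate 1 or 2 (log2 changes of 1.42 to 1.54), or a term for the pool (1.15), with adjusted p from 9.29e-11 to 0.0586 over 23 alternatives. Its RNA was scarce, with means of 0.863 CPM in KO1, 0.180 in KO2 and 1.28 in KO1+MK. GAB2 and DOK1 were not called without a term for the pool (-0.27 and -0.24).

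In KO1, 6 adaptor genes rose against WT (3 without KO1 replicate 1 or 3) and 9 fell, SHC4 (-0.91 ± 0.135) and DOK4 (-0.81 ± 0.0729) furthest, with a median of -0.23. In KO2, 8 fell, GRB7 (-3.56 ± 0.282) and SHC4 (-0.99 ± 0.144) furthest, and 5 rose (PIK3R3 0.87, PIK3R1 0.82, FRS2 0.45, SHC3 0.31, GRB2 0.17), with a median of -0.01. GRB7 was scarce, with a mean of 2.16 CPM in WT, 0.180 in KO2 and 0.279 in myrAKT. GRB2 was not called without WT replicate 1 (0.14) or 3 (0.17) or KO2 replicate 1 (0.15) or 3 (0.14), with the other filters (0.16 and 0.15) or with thinned counts (0.15). In myrAKT, 5 rose (PIK3R1 0.67, PIK3R3 0.59, DOK4 0.57, SHC3 0.40, SH2B3 0.29) and 4 fell (GRB7 -2.97, GAB2 -0.98, FRS3 -0.42, SOS2 -0.23), with a median of 0.02 that turned to -0.02 without a filter beyond 1 count, -0.00 without WT replicate 1 and -0.01 without myrAKT replicate 1. SH2B3 was not called without myrAKT replicate 1 (0.26) or a filter beyond 1 count (0.26), and SOS2 without WT replicate 3 or myrAKT replicate 2 (-0.23 in both). FRS3 was called in none of the 6 fits that left out 1 library (-0.46 to -0.39), nor by DESeq2 (-0.42), with upper-quartile or library total scaling (-0.38 in both) or with thinned counts (-0.37).

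Of 24 genes for inhibitors of these receptors and substrates, 22 were tested, and MK2206 raised 8 and lowered 3, against 20.3% and 17.5% of all genes. The median log2 change was 0.02 and turned to -0.01 without a filter beyond 1 count and with upper-quartile scaling, and 5 were called higher with that scaling, as without KO2+MK replicate 3. The ubiquitin ligase gene CBLB (0.82 ± 0.0476) and LRIG2 (0.57 ± 0.0471) rose, and SOCS2 (-1.13 ± 0.0438), ERRFI1 (-0.25 ± 0.028), for a feedback inhibitor of EGFR, and the receptor phosphatase gene PTPRF (-0.25 ± 0.0267) fell. ERRFI1 (-0.27, adjusted p = 0.125, edgeR, the highest of 24 alternatives, the lowest being 5.48e-18) and PTPRF (-0.24) were not called without a term for the pool. SOCS1, which would not have passed the filter without the treated libraries (7 rose without it), rose by 0.85 ± 0.172 (adjusted p = 0.000185, edgeR), a call lost without KO2+MK replicate 3 (0.74, adjusted p = 0.00107), with thinned counts (0.84, 0.00122) or without a term for the pool (0.91, 0.00292), the lowest of 24 alternatives being 0.000102.

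Against WT, 8 of the inhibitor genes fell in KO1, 12 in KO2 and 6 in myrAKT, with medians of -0.18, -0.37 and -0.11. PTPRJ, for a receptor phosphatase, fell in all 3 lines (-1.08 ± 0.0376, -1.29 ± 0.0411 and -1.50 ± 0.0483), and CBLB fell in KO1 (-1.16 ± 0.0569) and KO2 (-0.93 ± 0.052). The 5 that rose were STUB1 (0.43 in KO1 and 0.40 in KO2), SOCS2 (0.43 and 0.33), SOCS3 (0.39 and 0.72), PTPN1 (0.25 and 0.21) and PTPN2 (0.19 and 0.25) in both pools. In myrAKT, 2 rose (ENPP1 1.23 ± 0.0654, GRB10 0.31). PTPN2 in KO1 was not called without WT replicate 2 (0.18) or 3 (0.20) or KO1 replicate 1 (0.21) or 3 (0.16), or with upper-quartile (0.17) or library total scaling (0.16), and PTPN1 in KO2 not without KO2 replicate 1 (0.19). GRB10 was not called without WT replicate 3 (0.31) or myrAKT replicate 2 (0.29) or 3 (0.30), or with thinned counts (0.33).

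All 24 genes listed as FOXO factors and common FOXO targets, a list chosen with earlier results of these data known, were tested. MK2206 raised 16 and lowered 1 over both pools, against 20.3% and 17.5% of all genes, with a median log2 change of 0.62 against -0.00 for all genes. The stress response gene SESN3 (1.82 ± 0.115), KLHL24 (1.73 ± 0.0717), the ubiquitin ligase gene FBXO32 (1.40 ± 0.105), CCNG2 (1.37 ± 0.0576) and PDK4 (1.28 ± 0.0806) rose, and CITED2 fell by 0.76. A 2nd gene was called lower without KO1+MK replicate 1 or 3, and with DESeq2 size factors or upper-quartile scaling. Within KO1, MK2206 raised 14 and lowered 3 of these genes, against 11.8% and 9.69% of all genes. Within KO2 it raised 15 and lowered 2, against 13.7% and 9.71%. Against WT, 15 fell in KO1 (median -0.39) and 12 in KO2 (median -0.35), PDK4 by a log2 of -2.50 ± 0.113 and -1.71 ± 0.0987. TXNIP fell in KO1 (-1.90 ± 0.108, adjusted p = 4.46e-05, edgeR), a call lost without WT replicate 1 (-1.88, adjusted p = 0.00146, the highest of 17 alternatives, the lowest being 4.25e-88), and in KO2 (-2.19 ± 0.101). IGFBP1, named above as a FOXO target in liver, was counted in another list. It fell with MK2206 (log2 -0.85) and was higher in KO1, KO2 and myrAKT than in WT.

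Of the FOXO list, 2 genes rose in KO1 (CITED2 0.60, GADD45A 0.24) and 4 in KO2 (SESN3 1.13, FOXO6 0.69, CITED2 0.43, BCL2L11 0.41). In myrAKT, 8 rose (5 without myrAKT replicate 2), SESN3 furthest (2.91 ± 0.0684), and 5 fell (PIK3IP1 -1.81, BCL6 -0.40, CDKN1B -0.27, FOXO3 -0.26, KLF6 -0.19), with a median of 0.01 that turned to -0.03 without a filter beyond 1 count and -0.01 without WT replicate 1. GADD45A was not called without WT replicate 2 (0.21) or KO1 replicate 1 (0.23), 2 (0.26) or 3 (0.24), with upper-quartile (0.21) or library total scaling (0.20), or with all libraries in 1 fit (0.26), and FOXO6 not without WT replicate 2 (0.57) or KO2 replicate 1 (0.64), or with thinned counts (0.62). Of the 5 that fell in myrAKT, FOXO3 was not called without WT replicate 2 (-0.23) or myrAKT replicate 1 (-0.24) or 2 (-0.25), and CDKN1B not without WT replicate 2 (-0.27) or 3 (-0.24) or myrAKT replicate 1 (-0.28) or 3 (-0.24). KLF6 was called only in the fit without myrAKT replicate 1 among those leaving out 1 library, its values in the others being -0.20 to -0.17. None of FOXO3 (-0.21), CDKN1B (-0.23) and KLF6 (-0.15 and -0.14) was called with upper-quartile or library total scaling.

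**Figure D5:**
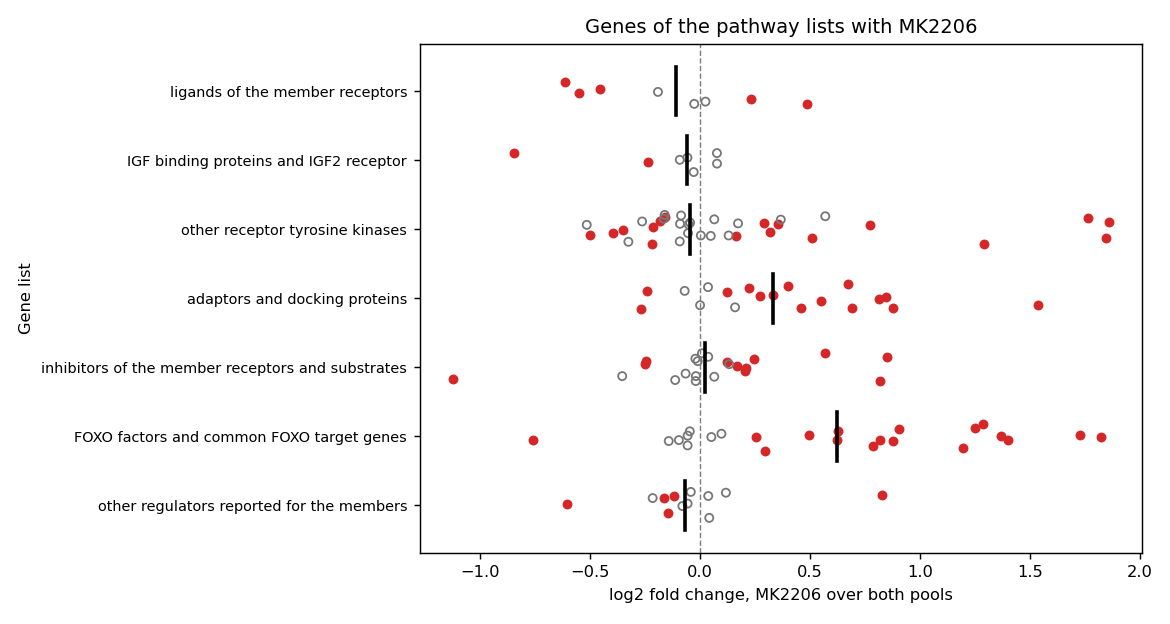
The edgeR log2 fold change with MK2206 averaged over both pools (x axis) for each tested gene of the 7 pathway lists (y axis, with vertical scatter for legibility), red where the adjusted p was at most 0.001, open otherwise, with black bars for list medians and a dashed line for the median of all genes. The medians are 0.62 for FOXO factors and targets and 0.33 for adaptors and docking proteins, and between -0.11 and 0.02 for the other lists, of which those of other receptor tyrosine kinases and of inhibitors changed sign under an alternative. The lists were chosen with earlier results of these data known.

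Of 12 other regulators reported for these genes, all were tested, and MK2206 raised 1 and lowered 4 (median log2 change -0.07), against 20.3% and 17.5% of all genes. FOXA1, for a forkhead factor, rose (0.83 ± 0.0717), and MYC (-0.61 ± 0.0683), AKT2 (-0.16 ± 0.0263), CTBP2 (-0.15 ± 0.0258) and CTBP1 (-0.12 ± 0.0284) fell. MYC was not called without a term for the pool (-0.62, adjusted p = 0.00144, edgeR, the highest of 24 alternatives, the lowest being 5.46e-36). CTBP1 (adjusted p = 0.000991, edgeR) lost its call in 14 of 24 alternatives (adjusted p from 3.81e-05 to 0.00616), among them the fits without KO1 replicate 1, 2 or 3, KO2 replicate 1 or 3, KO1+MK replicate 1 or 2, and KO2+MK replicate 2 or 3 (-0.13 to -0.11). Against WT, 4 rose in KO1 (CTCF 0.34, AKT2 0.27, CTBP1 0.25, MYC 0.20) and 2 fell, among them SP1 (-0.21), with a median of -0.08. In KO2, 4 rose (CTCF 0.54, TFAP2C 0.49, AKT2 0.25, CTBP1 0.25) and 3 fell, among them FOXA1 (-0.96) and MYC (-0.31), with a median of -0.10. In myrAKT, 3 rose (TFAP2C 1.27, AKT1, which its construct carries, 0.77 ± 0.0441, CTCF 0.35) and 4 fell, among them MYC (-1.09), FOXA1 (-0.85) and TFAP2A (-0.81), with a median of -0.04. MYC in KO1 was not called without KO1 replicate 3 (0.18), and with all libraries in 1 fit its calls in KO1 (0.22) and KO2 (-0.30) were lost.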

How the data were processed

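The authors prepared ribosomal RNA-depleted libraries with KAPA RNA HyperPrep and RiboErase, sequenced as 1 pool in paired-end NextSeq runs. Their methods and processing notes name FastQC, Trim Galore, HISAT2, featureCounts and MultiQC on hg38; versions, annotation and the rules for strand and shared reads are not given in the sources used here. The deposited unit is the count of reads per Ensembl gene. GENCODE 44 gave symbols, positions and exon lengths.

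The 15587 genes that reached 1 CPM in 3 or more libraries were tested with edgeR 4.0.16 (TMM, quasi-likelihood, robust) in R 4.3.3, 2-sided, fitting the groups compared. An adjusted p of at most 0.001 was a call. The test was also run on simulated counts, whose outcome is not given here and on which no result above rests. Alternatives were DESeq2 1.42.0, other scalings, filters and thresholds, 1 fit of all libraries, a replicate block, no pool term, each library left out, and thinned counts. Members and lists were chosen with earlier results of these data known. Named genes were the 7 members and, per list, those with the largest called changes (up to 5 with MK2206 over both pools, up to 3 per line against WT), of which most are printed. 1 of the other regulators is counted in its list but not reported by itself here. Replicate pairs differed by more than counting noise (mean chi-square per gene 2.14 to 9.78).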

Additional observations from a re-analysis of the deposited data

How the results depend on the processing

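Of 1043 values of the 7 genes under alternatives, 960 kept their direction and side of the threshold, 57 lost and 15 gained a call, and 11, called in neither fit, changed sign. Of 2897 for named list genes, 2699 kept both and 198 lost a call, and the causes were not tested. With a fold change of at least 1.5 added, genes called were 830 (MK2206 in KO1), 1118 (KO2), 1241 (both pools), 0 (difference between pools), 2176 (KO1 against WT), 2647 (KO2), 2169 (myrAKT) and 446 (KO1 against KO2), and members called were 3 over both pools and 1 for each line against WT. At an adjusted p of at most 0.05, genes called were 7073, 7321, 9316, 36, 10067, 8468 for myrAKT and 5376 for KO1 against KO2, with 5 members in the last. The difference between pools gave 22 genes with DESeq2, 34 without a filter beyond 1 count and 0 with all 18 libraries in 1 fit, which gave 1560 for KO1 against KO2. No term for the pool gave 3366 over both pools.

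Leaving out 1 library gave 2030 to 4057 genes for MK2206 in KO1, 2317 to 4369 in KO2, 2 to 13 for the difference and 1526 to 2159 for KO1 against KO2, and 2 to 4 members for myrAKT and 0 to 1 for KO1 against KO2. The lows were without KO1 replicate 1 (2159 without KO1 replicate 3), KO2+MK replicate 2 and KO1 replicate 1, and for myrAKT members WT replicate 2 or 3; the difference gave 4 without KO1+MK replicate 1 and 13 without KO2+MK replicate 1.

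Replicate numbers were not used to pair the samples in the main fits. Same-numbered deviations correlated between -0.233 and 0.192, and differently numbered ones between -0.261 and 0.216. With 3 replicates per group these ranges do not settle whether the numbers pair samples. With the replicate block, genes called were 3116, 3823, 5583, 2, 6057, 7038, 5155 and 2936 in the order above, EGFR over both pools (-0.12, adjusted p = 0.00104, edgeR) and IRS2 in KO1 against WT (0.22, 0.00165) were not called, and INSR was called between the pools (-0.19, 0.000489), making 1 member there. Of the list genes, EPHB2, PTPN2 and GADD45A in KO1, KLF6 in myrAKT and CTBP1 with MK2206 also lost their calls. Depth limits ERBB3 most, with as few as 102 counts.

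The values that changed sign were ERBB2 with MK2206 in KO2 (0.02; -0.03 with upper-quartile scaling, -0.00 in 1 fit of all libraries, and -0.02 to 0.04 over left-out libraries), INSR in myrAKT (0.01; -0.03 without a filter beyond 1 count, -0.02 to 0.05 over left-out libraries), and, over left-out libraries alone, the difference between pools in EGFR (-0.02; -0.05 to 0.02) and IGF1R (-0.04; -0.08 to 0.03). GPS2 and AKT1, also called in neither fit, did so with MK2206 in KO2 (GPS2 -0.02, 0.01 with thinned counts and -0.05 to 0.01 over left-out libraries; AKT1 -0.02, -0.06 to 0.03), GPS2 in KO1 against WT (-0.04; -0.07 to 0.03) and AKT1 in KO2 against WT (-0.03; -0.06 to 0.00).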
